A study of Mus musculus with 4 samples.

Results

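The microRNAs (miRNAs) described here are the mature arms that the mouse genes of the miR-199 and miR-214 families give on the array: mmu-miR-199a-3p, mmu-miR-199a-5p, mmu-miR-199b-5p, mmu-miR-214-3p and mmu-miR-214-5p, named mmu for the mouse, a prefix mostly left out below. They were chosen by name and genomic origin, with earlier results of these data known, and they make up 5 of the 1247 mouse miRNAs with probes on the array. RNA came from the stromal-vascular fraction (SVF) of visceral white adipose tissue (visWAT), the cells that remain when collagenase-digested fat is freed of its floating adipocytes. It was hybridised to 4 single-colour Agilent miRNA arrays, 2 per group, which ask how the miRNAs of the SVF differ between mice given CL 316243 (CL), an agonist of the β3-adrenoceptor that triggers browning of white fat, and mice given vehicle.

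All donors were female mice, 8 weeks of age by the growth protocol, kept at room temperature. The study's methods, by contrast, describe a move to thermoneutral housing before its in vivo treatments. The CL group received 1 mg/kg CL for 3 days and the vehicle group received PBS. The labels call the injections subcutaneous, whereas the study's methods call them intraperitoneal. The growth protocol gives C57/BL6 for all mice, although the strain labels of the 4 samples run C57/BL6, C57/BL7, C57/BL8 and C57/BL9. No transgene, deletion or other agent is named for either group. Each array held RNA pooled from several mice, so the spread between arrays is not a spread between animals, and the p-values measure only the spread between these samples.

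A miRNA hairpin is cut into a duplex whose arms are named 5p and 3p, and the seed near the 5′ end of an arm guides most of its pairing with target messenger RNAs. miR-199a and miR-214 are known as miRNAs of mesenchymal cells such as fibroblasts and skeletal progenitors. In the mouse miR-214 and the chromosome 1 copy of miR-199a are processed from Dnm3os, a non-coding transcript that runs opposite to the dynamin gene Dnm3. This transcript is activated by the transcription factor Twist1 and is needed for normal skeletal growth. In adipose tissue the fibroblast-like progenitors of adipocytes lie within the SVF, together with endothelial, mural and blood cells.

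In the RefSeq annotation of GRCm38.p6, Mir199a-2 lies at chr1:162217814-162217923 and Mir214 at chr1:162223368-162223477, both on the plus strand. The hairpins are 5444 bases apart. Both lie within Dnm3os, annotated as a long non-coding RNA at chr1:162217623-162225550 on the same strand, and within Dnm3, which spans chr1:161982450-162478321 on the minus strand. A further copy of the miR-199a hairpin, Mir199a-1, lies at chr9:21496495-21496564 on the minus strand, inside the span of Dnm2 and opposite to it. Mir199b lies at chr2:32318460-32318569 on the plus strand, inside the span of Dnm1 and again opposite to it. The array therefore sums the chromosome 1 and chromosome 9 copies in the signals of miR-199a-3p and miR-199a-5p. Whether a hairpin falls in an exon or an intron of its host was not analysed here.

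The mature sequences show what the arms have in common. They are printed 5′ to 3′ from RefSeq, where 4 of the 5 arms matched, and capitals mark the seed, bases 2 to 8.
miR-199a-3p: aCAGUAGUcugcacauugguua
miR-199a-5p: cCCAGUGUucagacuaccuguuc
miR-214-3p: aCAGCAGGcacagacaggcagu
miR-214-5p: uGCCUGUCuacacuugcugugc
On chromosome 1, miR-199a-5p occupies chr1:162217844-162217866, miR-199a-3p chr1:162217883-162217904, miR-214-5p chr1:162223397-162223418 and miR-214-3p chr1:162223438-162223459. The mature sequence of miR-199b-3p, at chr2:32318524-32318545, is identical to that of miR-199a-3p, and the array's probes for miR-199a-3p list both names. The values given for miR-199a-3p therefore belong to miR-199a-3p and miR-199b-3p together. Among 1679 mature mouse names in the table, the seed of miR-214-3p was shared only with miR-761, which the array detected in 0 of the 4 samples.

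The probes decide which of these bases the array reads. Each arm had 40 spots, spread over probes of different length that begin at the 3′ end of the miRNA, and the longest probe of each arm is printed 5′ to 3′. The capital in the probes of miR-199a-5p and miR-199b-5p marks the single base at which they differ.
miR-199a-3p probe: taaccaatgtgcagactact
miR-199a-5p probe: gaacaggtagtctGaacac
miR-199b-5p probe: gaacaggtagtctAaacactgg
miR-214-3p probe: actgcctgtctgt
miR-214-5p probe: gcacagcaagtgtagac
The probe of miR-199a-3p pairs with bases 3 to 22 of the miRNA and that of miR-199a-5p with bases 5 to 23. The probe of miR-214-5p pairs with bases 6 to 22, and that of miR-214-3p only with bases 10 to 22, outside its seed. Over the 19 bases that the longest probes of miR-199a-5p and miR-199b-5p can be compared, the substitution was G14A, counted from 1 at the 5′ end of the probe, and it faces base 10 of miR-199a-5p. How much of each signal comes from the other miRNA was not tested.

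The 4 arrays lay on 1 slide. Row 1 held vehicle and row 2 held CL, and slide row and treatment cannot be told apart. Replicate 1 of each group lay in column 3 and replicate 2 in column 4. The scanner software detected 420 to 431 miRNAs on the vehicle arrays and 386 to 403 on the CL arrays, no miRNA spot was saturated, and the mean of 1000 negative control spots was 31.7 to 38.6 scanner units. Detection on both arrays of a group, whichever group it was, made a miRNA eligible for testing, which kept 425 miRNAs and all 5 arms, although miR-214-5p passed only through the CL group. The vehicle arrays differed from each other in a way that followed the probes. Across the 425 miRNAs, the difference of vehicle 2 minus vehicle 1 had a Spearman rank correlation of −0.60 with longest-probe length and 0.57 with C share. The change from vehicle to CL had correlations of 0.47 and −0.43 with the same measures. These are descriptions across miRNAs of the same arrays, which are not independent replicates.

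After CL, 4 of the 5 arms gave a higher signal and the fifth was near background in both groups. The mean of miR-199b-5p was 2.79-fold that of vehicle, that of miR-199a-5p 2.23-fold, that of miR-199a-3p 2.14-fold and that of miR-214-3p 1.93-fold, with 2 arrays per group. For these 4 arms both CL arrays lay above both vehicle arrays, as they did for 160 of the 425 tested miRNAs, or 37.6%. By limma's moderated test all 4 were higher at an unadjusted p of 0.05, where 19.1% of tested miRNAs were higher and 16.5% lower, together 35.5%. After Benjamini-Hochberg adjustment over the 425 miRNAs none of the arms was called, and 0.00% of all tested miRNAs were. In RNA of a mixed fraction, fewer cells of a type and less RNA per cell cannot be told apart, and the same holds for more.

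**Figure D1:**
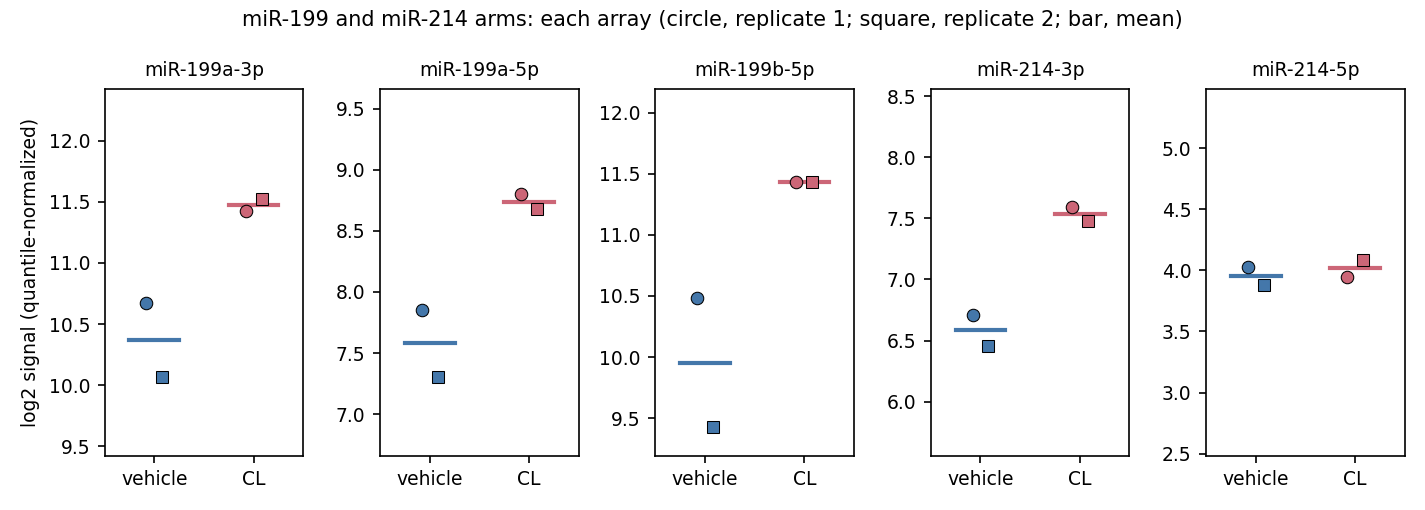
Log2 quantile-normalized signal of each arm (vertical axes of equal length but different start) on the 4 arrays, with vehicle in blue, CL in red, circles for replicate 1, squares for replicate 2 and bars for group means. In the panels of miR-199a-3p, miR-199a-5p, miR-199b-5p and miR-214-3p the CL arrays sit above the vehicle arrays, and vehicle 2 is the lowest, while the groups overlap for miR-214-5p.

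mmu-miR-199a-3p, known to lower mTOR and the receptor MET, had log2 signals of 10.68 and 10.07 in vehicle (replicates 1 and 2) against 11.43 and 11.52 after CL. Both CL arrays were high and close to each other, vehicle 2 was the lowest, and the groups did not overlap. The log2 mean was 10.37 ± 0.43 in vehicle and 11.47 ± 0.07 in CL (SD, n = 2 each). The log2 fold change was 1.10 with a standard error of 0.23, a 95% interval of 0.48 to 1.72 and an adjusted p of 0.0937 by limma.

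mmu-miR-199a-5p, which lowers caveolin-1 in fibroblasts, had log2 signals of 7.86 and 7.31 in vehicle against 8.80 and 8.68 after CL. Again the groups did not overlap and vehicle 2 was the lowest array. Its log2 mean was 7.58 ± 0.39 in vehicle and 8.74 ± 0.09 in CL (SD, n = 2 each). The log2 fold change was 1.16 with a standard error of 0.22, a 95% interval of 0.57 to 1.74 and an adjusted p of 0.0901 by limma.

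mmu-miR-199b-5p, the arm made from chromosome 2 and known in the heart for lowering the kinase Dyrk1a, had log2 signals of 10.48 and 9.43 in vehicle against 11.43 on each CL array. The CL arrays were almost equal, whereas the vehicle arrays lay 1.05 apart on the log2 scale, and the groups did not overlap. Its log2 mean was 9.95 ± 0.74 in vehicle and 11.43 ± 0.0029 in CL (SD, n = 2 each). The log2 fold change was 1.48 with a standard error of 0.37, a 95% interval of 0.50 to 2.45 and an adjusted p of 0.0989 by limma. Without vehicle 2, the log2 fold change was 0.95 instead of 1.48.

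mmu-miR-214-3p, known for lowering Ezh2, had log2 signals of 6.71 and 6.46 in vehicle against 7.59 and 7.47 after CL. The groups did not overlap, and its vehicle arrays lay closer together than those of the miR-199 arms. Its log2 mean was 6.58 ± 0.18 in vehicle and 7.53 ± 0.08 in CL (SD, n = 2 each). The log2 fold change was 0.95 with a standard error of 0.15, a 95% interval of 0.56 to 1.34 and an adjusted p of 0.0884 by limma.

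mmu-miR-214-5p, the opposite arm of the miR-214 hairpin, had log2 signals of 4.02 and 3.88 in vehicle against 3.95 and 4.08 after CL. The groups overlapped, and the log2 fold change was 0.06 with a 95% interval of −0.29 to 0.42 and an adjusted p of 0.748 by limma. The scanner software detected it on both CL arrays and on neither vehicle array, where it was not well above background. On each CL array 1 of its 40 spots, on the longest probe, was well above background. Detection on both CL arrays and on neither vehicle array was seen for 4 of the 425 miRNAs, or 0.941%.

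With groups of 2, the smallest two-sided p of an exact permutation test is 0.333, and it was 0.333 for each of miR-199a-3p, miR-199a-5p, miR-199b-5p and miR-214-3p and 0.667 for miR-214-5p. Among the 425 changes ordered from the highest, miR-199b-5p was 9, miR-199a-5p 14, miR-199a-3p 18 and miR-214-3p 22, while miR-214-5p was 183.

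**Figure D2:**
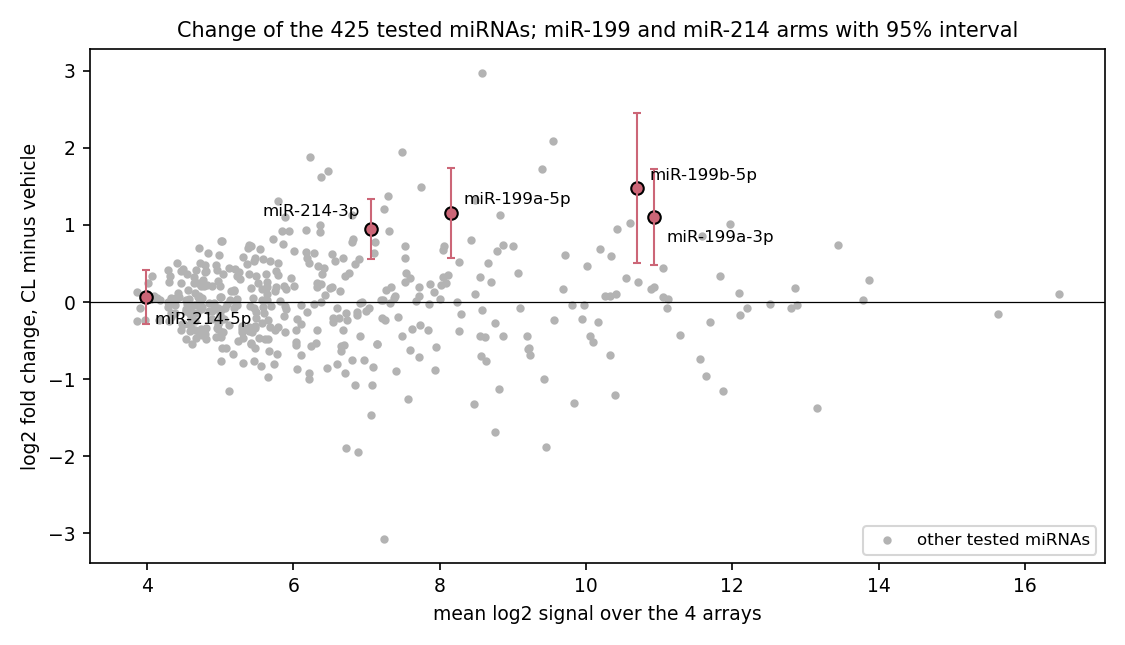
Log2 fold change of CL minus vehicle (vertical axis) against the mean log2 signal over the 4 arrays (horizontal axis) for the 425 tested miRNAs in grey, with the miR-199 and miR-214 arms in red and their 95% intervals by limma. The intervals of 4 arms lie above 0 and that of miR-214-5p, from −0.29 to 0.42, spans it.

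In the unnormalized signals, too, both CL arrays exceeded both vehicle arrays for the bright arms. On the longest probe, the median signal of miR-199a-3p was 2423 and 1412 scanner units in vehicle against 3315 and 3864 after CL. For miR-199b-5p these medians were 2241 and 981.5 in vehicle against 3562 and 3899 after CL. The CL signals exceeded the vehicle signals in both cases, and vehicle 2 was again the dimmest. For miR-199a-5p the medians were 593.1 and 353.3 in vehicle against 927.9 and 944.9 after CL, and for miR-214-3p 185.9 and 142.8 against 293.4 and 294.4. All 40 spots of each of these 4 arms were well above background on every array, and in all 40 both CL signals exceeded both vehicle signals. That held for every spot of 27 of the 425 tested miRNAs, or 6.35%. This share covers bright and dim miRNAs alike and was not matched to the brightness of the arms. The spots of an arm share its RNA and are no replicates of the treatment. Of the 40 spots of miR-214-5p, 10 had both CL signals above both vehicle signals. The median of its longest probe was 42.9 and 33.1 in vehicle against 48.8 and 44.9 after CL, close to the negative controls.

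**Figure D3:**
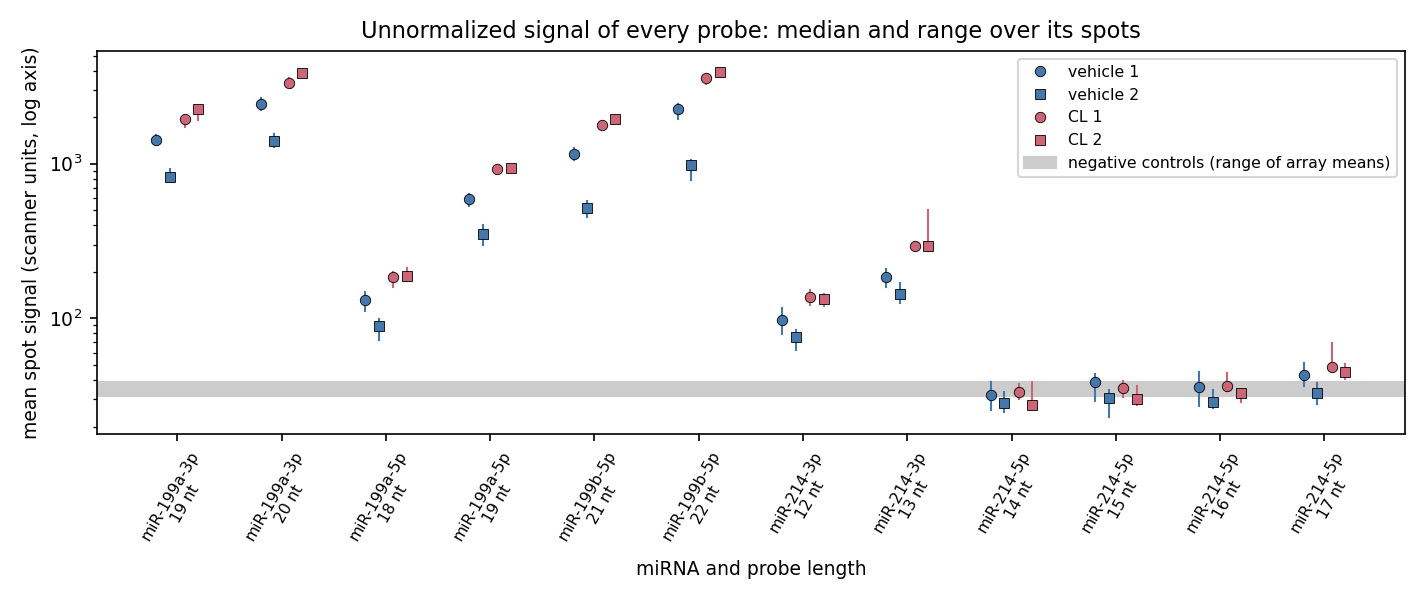
Unnormalized mean spot signal in scanner units on a log axis for every probe of the 5 arms, named by its length, with the median and the range over its spots on each array. The CL arrays lie above the vehicle arrays for the probes of miR-199a-3p, miR-199a-5p, miR-199b-5p and miR-214-3p, whereas those of miR-214-5p lie at or near the grey band of negative controls.

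Probes of the same arm gave changes of similar size where the arm was bright. The log2 fold change was 1.10 and 1.13 for the 19-nt and 20-nt probes of miR-199a-3p. It was 0.99 and 1.26 for the 18-nt and 19-nt probes of miR-199a-5p, 1.36 and 1.52 for the 21-nt and 22-nt probes of miR-199b-5p, and 0.83 and 1.04 for the 12-nt and 13-nt probes of miR-214-3p. In each of these 4 arms the longer probe gave the larger value. The 4 probes of miR-214-5p did not share a direction. Their log2 fold changes were −0.16 and −0.26 for the 14-nt and 15-nt probes and 0.14 and 0.55 for the 16-nt and 17-nt probes. With the 17-nt probe alone, the change of miR-214-5p had an unadjusted p of 0.0170 and an adjusted p of 0.110 by limma. Only detection on the CL arrays had admitted this arm to the test, and its spots well above background there were on this probe. That p is therefore no separate evidence of a rise.

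Since changes moved with probe length across the array, each arm was also set beside the tested miRNAs whose longest probe has the same length, itself included. Among the 31 with a 13-nt probe the median log2 fold change was −0.21, and none had a larger one than miR-214-3p. Among the 34 with a 20-nt probe the median was 0.50, and 5 had a larger change than miR-199a-3p. Among the 46 with a 19-nt probe the median was 0.19 and 2 exceeded miR-199a-5p, and among the 19 with a 22-nt probe the median was 0.40 and 2 exceeded miR-199b-5p. When each array's linear trend on the length, C share and G share of the longest probe was removed, the log2 fold changes were 0.81 for miR-199a-3p, 0.92 for miR-199a-5p, 1.04 for miR-199b-5p and 1.16 for miR-214-3p. The miR-199 arms thus had smaller values than before and miR-214-3p a larger one. In that fit limma's adjusted p was 0.0350, 0.0274, 0.0462 and 0.0251 in the same order, and 22 of the 425 miRNAs, or 5.18%, passed an adjusted threshold of 0.05 as higher, against 21.6% without adjustment. miR-214-5p had a log2 fold change of −0.01 there.

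Replicate number and slide column coincide, so a block on the replicate number compares arrays within a column. In column 3 the log2 difference of CL 1 minus vehicle 1 was 0.75 for miR-199a-3p, 0.95 for miR-199a-5p, 0.95 for miR-199b-5p and 0.88 for miR-214-3p. In column 4 the difference of CL 2 minus vehicle 2 was 1.45, 1.37, 2.0 and 1.02 for the same arms. The column with vehicle 2 gave the larger difference for each of them, and the difference between columns was smallest for miR-214-3p. For miR-214-5p the differences were −0.07 and 0.20. With the replicate block, limma's adjusted p was 0.0237 for miR-199a-3p, 0.0158 for miR-199a-5p, 0.0208 for miR-199b-5p and 0.0208 for miR-214-3p, and all 4 were called. The block fits a further term to the same 4 arrays. For miR-214-3p the standard error was larger with the block, 0.17 against 0.15 without it. For miR-199a-3p, miR-199a-5p and miR-199b-5p it was 0.22, 0.19 and 0.27 with the block, against 0.23, 0.22 and 0.37. In the same blocked fit 47 of the 425 miRNAs, or 11.1%, were called higher, and 20.9% were called in either direction. miR-214-5p had an adjusted p of 0.831 with the block.

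**Figure D4:**
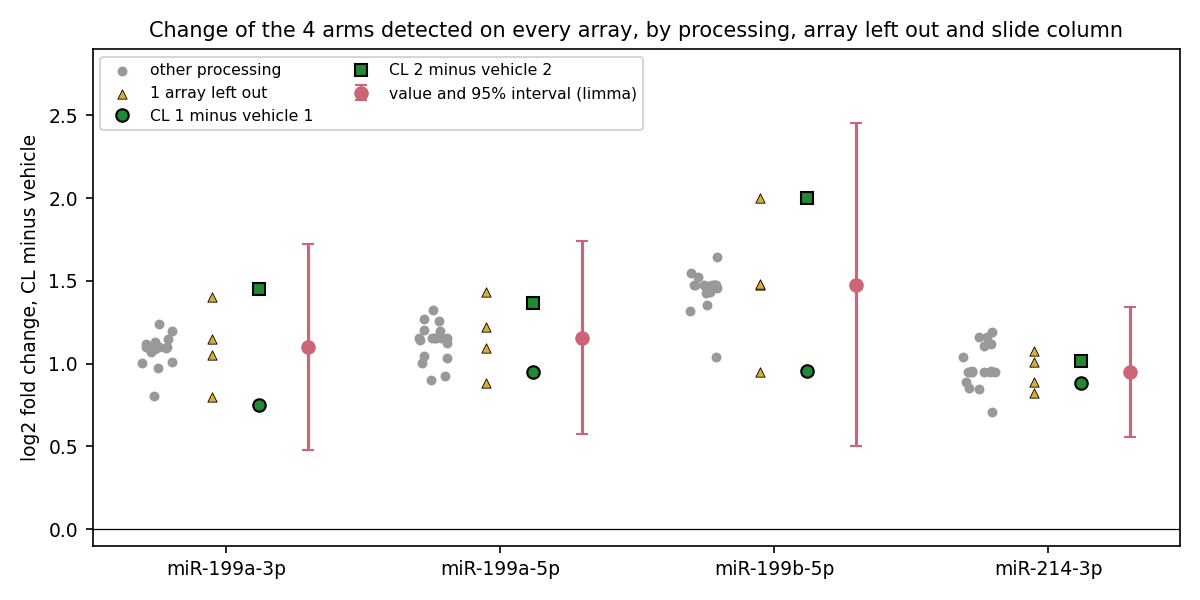
Log2 fold change of CL minus vehicle (vertical axis) for the 4 arms detected on every array, under other processing (grey), with 1 array left out (triangles), within each slide column (green) and as reported with its 95% interval by limma (red). All values lie above 0, and those of miR-199b-5p spread most, from 0.95 to 2.0.

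Whether the arms changed unequally was examined on the difference of their log2 changes for 4 pairs. The arms of the miR-199a hairpin differed by 0.06 (miR-199a-5p minus miR-199a-3p), with 0.20 in column 3 and −0.08 in column 4. For these arms the columns gave opposite signs, and the exact permutation p was 1.00. Since the miR-199a-3p signal includes miR-199b-3p, this difference is not that of the miR-199a arms alone. miR-199b-5p exceeded miR-199a-5p by 0.32, of which 0.01 was seen in column 3 and 0.63 in column 4 (exact p of 0.333, 0.667 after adjustment over the 4 pairs). miR-199a-3p minus miR-214-3p gave 0.15, with −0.13 in column 3 and 0.44 in column 4 (exact p of 0.667, adjusted 0.889). Both have a hairpin within the same host transcript on chromosome 1. The probes of miR-199a-3p also read the copy on chromosome 9 and miR-199b-3p from chromosome 2, so this pair does not isolate that transcript. For the arms of the miR-214 hairpin, miR-214-5p minus miR-214-3p gave −0.88, with −0.96 in column 3 and −0.81 in column 4 (exact p of 0.333, adjusted 0.667). With the longest probes alone this difference was −0.49. Since miR-214-5p was not well above background in vehicle, its change was not measured on both sides, and this value does not rank beside the other pairs. None of the 4 pairs could pass a threshold of 0.05 in this design.

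Other miRNAs of stromal cells did not all share the direction of the miR-199 and miR-214 arms. Of 16 listed, all were detected on every array, 7 were higher at an unadjusted p of 0.05 by limma, 4 were lower and 5 were not called, beside 19.1% higher and 16.5% lower among all tested miRNAs. Their median log2 fold change was 0.39, beside 1.10 for the 5 arms and −0.01 for all tested miRNAs, whose quartiles were −0.34 and 0.34. The higher ones were miR-29b-3p, a repressor of collagen genes, with a log2 fold change of 1.72, miR-21a-5p with 1.01, miR-99a-5p with 0.94, miR-125b-5p with 0.86, miR-100-5p with 0.73, miR-152-3p with 0.66 and miR-22-3p with 0.44. With probe trends removed, miR-22-3p had 0.25 and was not called, whereas the other 6 were. The vehicle arrays of miR-29b-3p lay 1.75 apart on the log2 scale. Its difference of CL minus vehicle was 0.86 in column 3 and 2.59 in column 4. The lower ones were miR-10b-5p, which lies in the Hoxd cluster, with −1.31, miR-10a-5p of the Hoxb cluster with −0.68, miR-23b-3p with −0.59 and miR-24-3p with −0.42. The brightest of the list in vehicle, miR-29a-3p, had a log2 fold change of 0.34 and was not called. The summed linear signal of the list was 21881 and 17590 in vehicle against 25850 and 26272 after CL. For the 5 arms this sum was 3417 and 2026 in vehicle against 6174 and 6303 after CL.

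Markers of other cells in the SVF were examined on the same arrays. Both endothelial miRNAs were lower at an unadjusted p of 0.05, miR-126-3p with a log2 fold change of −1.38 and miR-126-5p with −0.80, and their summed signal was 15531 and 14216 in vehicle against 5134 and 6432 after CL. All 3 red cell miRNAs found on the array were higher, with log2 fold changes of 2.97 for miR-144-3p, 0.92 for miR-144-5p and 0.73 for miR-451a, with sums of 8173 and 9516 in vehicle and 16858 and 14247 in CL. Of 7 leukocyte miRNAs 2 were higher, miR-142-3p with 2.09 and miR-142-5p with 1.95, and miR-150-5p of mature lymphocytes was lower with −0.89, beside the 19.1% higher and 16.5% lower of all tested miRNAs. The other 4 leukocyte miRNAs were not called, and the brightest of them, miR-223-3p of myeloid cells, had a log2 fold change of 0.08. With probe trends removed, the log2 fold changes of miR-144-5p and miR-451a were 0.37 and 0.23, and neither was called. On the log2 scale the vehicle arrays lay 1.35 apart for miR-144-3p, 1.62 for miR-142-3p and 1.34 for miR-142-5p. The leukocyte sum was 2826 and 2257 in vehicle and 3956 and 3878 in CL.

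Of 4 mural miRNAs 2 were tested, and miR-145a-5p was lower with a log2 fold change of −0.75, whereas miR-143-3p had −0.44 and was not called. With probe trends removed miR-143-3p had −0.45 and was called. The mural sum was 673.5 and 570.3 in vehicle and 431.0 and 464.1 in CL. None of 3 muscle miRNAs was called, and their median log2 fold change was 0.32. Of 5 epithelial and mesothelial miRNAs, miR-200a-3p, miR-200c-3p, miR-141-3p and miR-429-3p were detected on no array, and miR-200b-3p, with a log2 fold change of 0.24, was not called. The hepatocyte miRNA miR-122-5p was detected on no array. The labelled fraction thus carried stromal, endothelial, mural, muscle and blood cell miRNAs on every array. The part of a shift in cell types in the higher signals of the miR-199 and miR-214 arms was not tested.

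**Figure D5:**
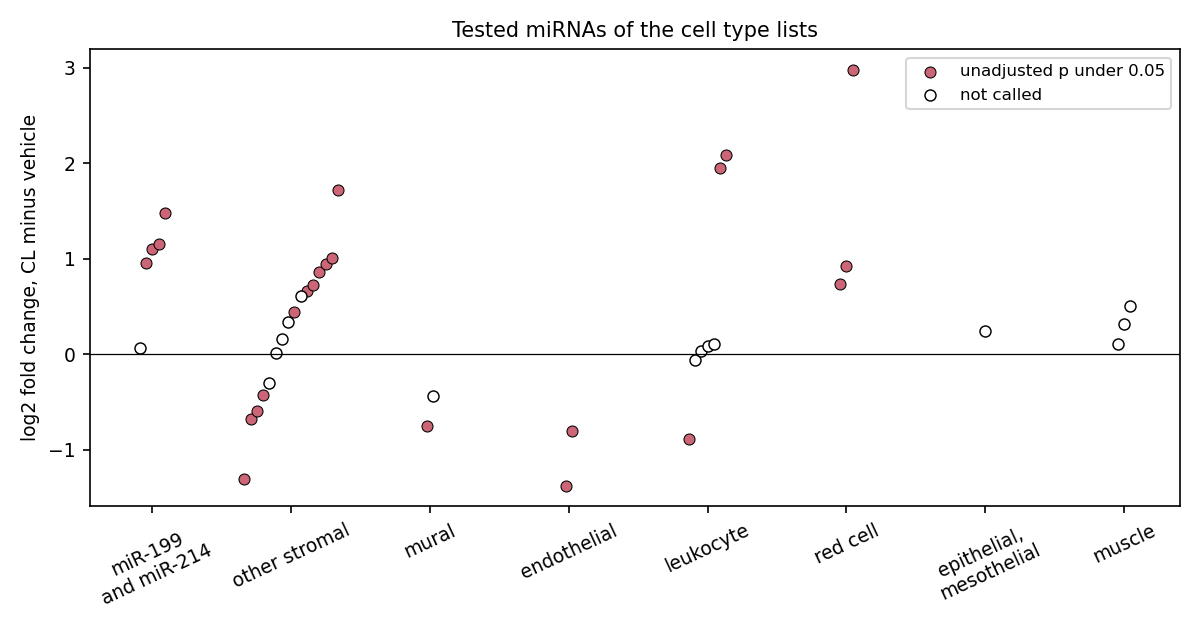
Log2 fold change of CL minus vehicle (vertical axis) of the tested miRNAs in each cell type list (horizontal axis), with filled points for an unadjusted p under 0.05 by limma and open points for miRNAs not called. The miR-199 and miR-214 arms and the red cell miRNAs lie above 0, both endothelial miRNAs below it, and the other stromal miRNAs on both sides.

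The miRNAs whose pattern over the 4 arrays was most like the arms were found by the Euclidean distance of their centred log2 profile from the mean centred profile of the 5 arms. The closest of the 420 other tested miRNAs were miR-379-5p at a distance of 0.100, miR-99a-5p at 0.105, miR-125b-5p at 0.106, miR-411-5p at 0.148 and miR-337-3p at 0.161. Their log2 fold changes were 0.92, 0.94, 0.86, 0.90 and 0.81 in that order. miR-379-5p, miR-411-5p and miR-337-3p belong to the imprinted Dlk1-Dio3 region. From this 5-arm mean the arms themselves lay further off, at 0.177 for miR-199a-3p, 0.207 for miR-214-3p, 0.226 for miR-199a-5p, 0.648 for miR-199b-5p and 0.930 for miR-214-5p. That mean profile includes miR-214-5p, which was near background, and its mean log2 fold change was 0.95, against 1.17 for the 4 arms detected on every array. Against the mean profile of those 4 arms, a choice made after seeing the data, the closest were miR-218-5p at 0.0803, miR-34c-5p at 0.180, miR-148a-3p at 0.215, miR-376b-3p at 0.225 and miR-379-5p at 0.254. From that 4-arm mean the arms lay at 0.0790 for miR-199a-5p, 0.118 for miR-199a-3p, 0.344 for miR-214-3p and 0.437 for miR-199b-5p. The near-background miR-214-5p lay at 1.16. The 4 arms are themselves part of the mean they were compared with. Of the other miRNAs, only miR-379-5p was among the closest 5 both times. With 4 arrays the likeness is a description that depends on the arms averaged.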

How the data were processed

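The data were 4 arrays of visWAT SVF RNA labelled with Cy3, 2 vehicle and 2 CL, grouped by their labels. The authors deposited scanner files of Agilent Feature Extraction 10.7.1.1, with a linear intensity for each spot. The deposited table of processed values is on a log2 scale, with column medians of −3.31, −3.30, −3.20 and −3.26. Over detected miRNAs its values had Spearman correlations of 0.993 to 0.995 with the log2 signals computed here, so the direction is that of the signal, and how it was centred is not given in the sources used here. For its arrays the study used robust multi-array analysis and SAM, and the settings used for these arrays are not given in the sources used here.

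With limma 3.58.1 in R 4.3.3, mean spot signals were background-corrected with normexp (offset 0) over all spots. Control spots and spots marked as outliers (1762 to 2550 miRNA spots per array) were left out, and arrays were quantile-normalized. Median polish over the spots of a miRNA gave its log2 signal. The moderated test of limma (lmFit, eBayes) compared the groups two-sided, and p-values of the 425 tested miRNAs were adjusted by Benjamini-Hochberg. The code was tested on simulated data. The number of arrays limits the precision.

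Deviations from the group means correlated at 0.12 between same-numbered arrays, across miRNAs, and no source says that the numbers pair the samples. Other normalizations, background corrections, summaries, filters and tests, the replicate block, the removal of probe trends and leaving out each array were alternatives. The named miRNAs are the 5 arms, the 5 nearest profiles and, of each list, the brightest in vehicle and those called. miR-486-5p of the red cell list was not matched on the array and was not analysed. The arms and lists were chosen with earlier results of these data known.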

Additional observations from a re-analysis of the deposited data

How the results depend on the processing

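Across 22 alternatives, the log2 fold change stayed above 0 for miR-199a-3p (0.80 to 1.40), miR-199a-5p (0.88 to 1.43), miR-199b-5p (0.95 to 2.0) and miR-214-3p (0.71 to 1.19), and miR-214-3p kept an unadjusted p under 0.05 in all of them. The highest adjusted p of these arms was 0.353. With the deposited table miR-199a-3p (1.00) and miR-199b-5p (1.43) no longer passed the unadjusted threshold. By the methods' t-test miR-199a-3p (1.10), miR-199a-5p (1.16) and miR-199b-5p (1.48) did not pass it, so that 1 arm was called instead of 4. miR-199b-5p also missed it with 75th-percentile scaling over detected probes (1.47) or all probes (1.55), with the scanner's total per miRNA (1.64) and by SAM (1.48). The causes were not tested.

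miR-214-5p depended on the summary. It passed the unadjusted threshold with the longest probe (0.55), the scanner's total (6.84) and the deposited table (3.91), where undetected miRNAs sit at a low value, and had the opposite sign with probe trends removed (−0.014). Because detection on the CL arrays alone had admitted miR-214-5p to the test, these passes are no separate evidence of a rise. Percentile scaling put it at the floor on every array, and the filter for detection on all 4 arrays left it out, so these gave no value. The difference of miR-214-5p and miR-214-3p was −0.49 with the longest probes.

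With 1 array left out, the lone array of a group being assumed to vary like the other group, the values ran from 0.80 to 1.40 for miR-199a-3p, 0.88 to 1.43 for miR-199a-5p, 0.95 to 2.0 for miR-199b-5p, 0.82 to 1.07 for miR-214-3p and −0.0076 to 0.14 for miR-214-5p, below 0 without vehicle 2 or without CL 2. Of the 425 miRNAs, 0 passed an adjusted p of 0.05 by limma and 151 an unadjusted one. SAM called 60 and the methods' t-test 56 unadjusted, and both 0 adjusted. The adjusted count was 89 with the replicate block, 68 without normalization between arrays, 50 with probe trends removed, 44 with median centring, 27 with the scanner's total, 7 from the deposited table, 2 under limma's intensity trend and 1 with outlier spots kept, an alternative chosen after seeing the data. With 1 array left out it ran from 1 without vehicle 2 through 21 without CL 1 and 31 without CL 2 to 230 without vehicle 1. In these fits 4 arms passed an adjusted p of 0.05 with the replicate block, without normalization, with probe trends removed and without vehicle 1, 3 with median centring, 2 without CL 2 and 1, miR-199b-5p, without CL 1. With the scanner's total the 1 arm that passed was miR-214-5p, and none of the 4 brighter arms did. miR-214-5p was detected on the CL arrays only, which also admitted it to the test, so its pass largely repeats that detection.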
